A study of Homo sapiens and Mus musculus with 10 samples.

Results

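The genes described here are 40 mitotic spindle and G2/M genes in A375 cells, an established human melanoma line, chosen by name from the 63140 gene rows of the human expression table. They were chosen with earlier results of these data known. All 40 had a row. A total of 39 passed the filter of 1 TPM in at least 3 of 6 libraries, and CDC25C was left untested. The libraries came from cells left untreated (Ctrl, n = 3) and cells cultured for 24 h with 80 µg/mL of the peptide LL-37 (n = 3), stated to be biological triplicates. This peptide is released from the precursor protein cathelicidin and kills microbes. The series also holds mouse tumour-bearing skin, which was not used here. The values are TPM (transcript abundances), which are scaled by transcript length and by library, so that levels can be compared between genes but sequencing depth is unknown. Changes are differences of log2(TPM + 1), which understate the change of low genes. In bulk RNA, more cells in G2 or M and more RNA per such cell cannot be told apart.

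Cells enter mitosis when cyclin B, bound to the kinase CDK1, becomes active. Kinesin motors, Aurora and Polo kinases and microtubule-binding proteins then build the spindle, while the kinetochore checkpoint holds back the anaphase-promoting complex until every chromosome is attached. That complex ends mitosis by tagging cyclin B and securin for degradation. The genes of this programme are transcribed together late in the cell cycle. Their promoters often carry the cell cycle homology region (CHR), bound by the MuvB core of the DREAM, B-MYB and FOXM1 complexes, together with CCAAT boxes bound by NF-Y. In growing tumour cells, these transcripts are commonly read as markers of the dividing fraction.

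Sequences that many of the members hold are shown first, for 7 genes picked from those higher with LL-37 in at least the first pair of treated libraries. Each line gives the 130 bases before the RefSeq start (GRCh38.p14), 5′ to 3′ on the gene's strand, with CHR matches (TTTGAA, or TTCAAA read on the other strand, or TTCGAA) and CCAAT boxes (CCAAT, or ATTGG on the other strand) in capitals.
CCNB2 (chr15:59105016-59105145, plus strand): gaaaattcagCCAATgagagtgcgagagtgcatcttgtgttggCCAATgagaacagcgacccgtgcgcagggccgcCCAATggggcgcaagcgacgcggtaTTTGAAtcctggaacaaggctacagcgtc
CCNB1 (chr5:69167020-69167149, plus strand): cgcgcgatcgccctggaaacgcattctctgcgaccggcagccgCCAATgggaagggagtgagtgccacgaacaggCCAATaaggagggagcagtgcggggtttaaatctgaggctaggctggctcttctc
CDC20 (chr1:43358851-43358980, plus strand): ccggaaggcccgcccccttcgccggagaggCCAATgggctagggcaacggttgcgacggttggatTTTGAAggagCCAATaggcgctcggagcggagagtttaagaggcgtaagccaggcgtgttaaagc
HMMR (chr5:163460502-163460631, plus strand): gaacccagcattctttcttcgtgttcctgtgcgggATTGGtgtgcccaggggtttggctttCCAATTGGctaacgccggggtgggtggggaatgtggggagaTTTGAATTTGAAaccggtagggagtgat
PRC1 (chr15:90994536-90994665, minus strand): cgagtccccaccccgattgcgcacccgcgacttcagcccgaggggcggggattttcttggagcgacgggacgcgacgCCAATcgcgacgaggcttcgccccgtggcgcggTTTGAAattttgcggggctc
PLK1 (chr16:23678759-23678888, plus strand): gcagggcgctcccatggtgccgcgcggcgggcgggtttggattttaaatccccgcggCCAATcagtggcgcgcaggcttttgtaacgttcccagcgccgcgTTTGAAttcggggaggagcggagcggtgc
CDCA8 (chr1:37692386-37692515, plus strand): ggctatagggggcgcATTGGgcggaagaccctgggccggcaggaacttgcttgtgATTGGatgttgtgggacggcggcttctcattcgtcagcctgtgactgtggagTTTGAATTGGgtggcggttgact
In HMMR, CCAAT and ATTGG overlap in the middle of the stretch and the CHR letters stand in tandem, and in CDCA8 the CHR letters overlap an ATTGG. The 3 CCAAT boxes of CCNB2 follow each other at steps of 33 bases, and those of CCNB1 are 32 bases apart. The CHR letters begin 29 bases before the start in both CCNB2 and PLK1 and 20 bases before it in PRC1. CCNB1 holds none of these CHR letters in its window. The choice of genes was not complete. In the first pair of treated libraries, 22 members lay above every control (12.3% of all tested genes). Those not shown include CCNA2 and KIF2C. CCNA2 held a CCAAT box but no CHR letters in its window, and KIF2C held neither.

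Over the whole 300-base window, from 250 bases before the start to 50 after it, 34 of the 40 members had an entry. AURKA, BIRC5, BUB3, TPX2, TTK and UBE2C had none. The CHR letters occurred in 27 of 34 members (79.4%), against 19.5% of the 27305 genes in the promoter table and 15.2% of the 10492 tested in A375 that had an entry. A CCAAT box occurred in 27 of 34 (79.4%), against 39.7% of all genes in the table and 43.5% of those tested in A375. Both were held by 22 members (64.7%), against 7.85% and 6.38%. These shares describe letters in a window, not binding. For the 26 tested members with CHR letters, the median log2 change over the first 2 LL-37 libraries was 0.20. It was 0.21 for the 7 without (0.10 and 0.14 with all libraries). Of the 26, 13 were apart and higher over the first 2 LL-37 libraries, and of the 7, 5 were (12.3% of all tested genes). For the 16 with at least 2 CCAAT boxes the median was 0.24, and for the other 17 it was 0.18 (0.14 and 0.05 with all libraries). The median longest transcript was 2802.5 bases for the 16 and 4087 bases for the 17. The differences in log2 change were not tested.

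**Figure D1:**
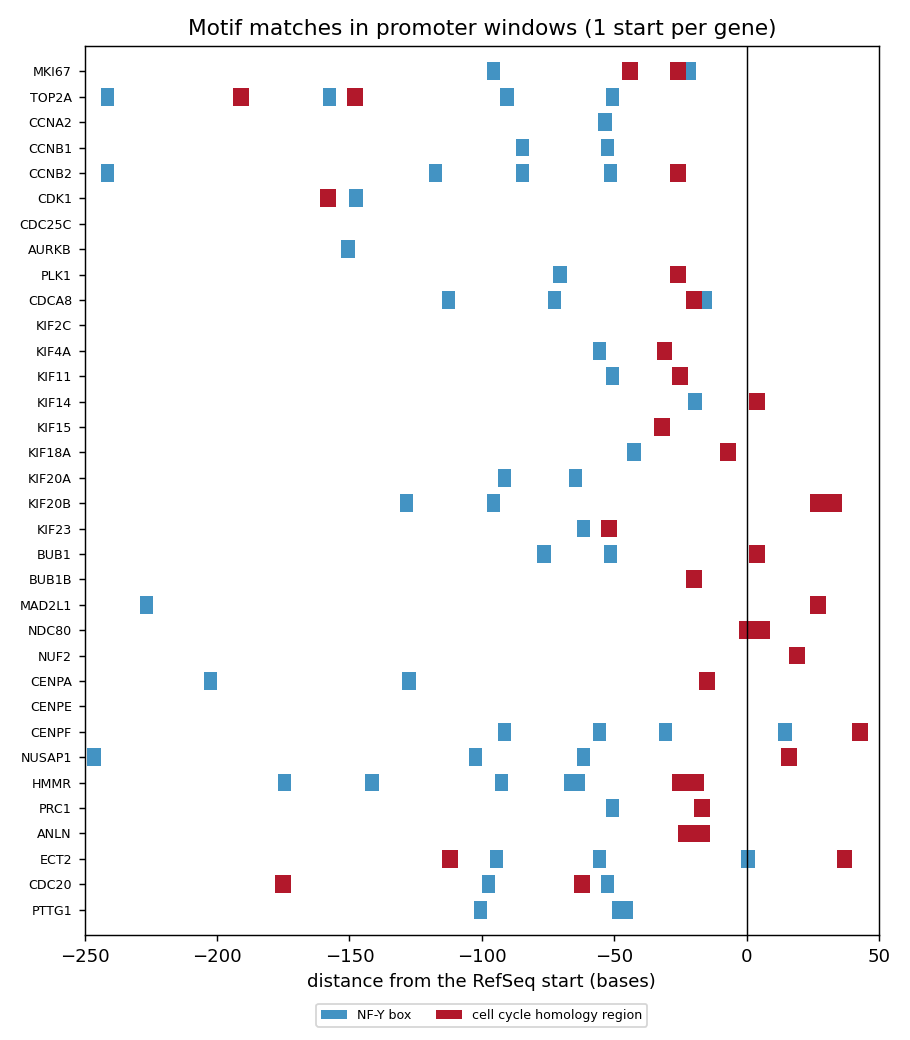
Positions of CHR and NF-Y box (CCAAT) matches on either strand in the promoter windows of 34 members, as distance from the RefSeq start in bases, with the first listed start where a gene has several. Most CHR matches lie close to the start, and 27 of 34 members have a match at 1 of their listed starts.

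As a group, the 39 tested members sat higher in LL-37 libraries than genes in general, by small amounts, and no single member passed the test. Their median log2 change was 0.12, while the median of all 14399 tested genes was -0.20, so that the members lay 0.32 above it. Of the 39 tested, 26 had a positive change (19.7% of all tested genes did). For 10 members the 3 LL-37 libraries all lay above the 3 Ctrl libraries, and for none did they all lie below. Over all tested genes, 2.13% were apart in the higher direction and 10.3% in the lower. The 10 were UBE2C, CDC20, CCNB1, CCNB2, CCNA2, AURKA, BIRC5, BUB1, NUF2 and HMMR. In limma, 0 of 39 members and 0% of all tested genes passed at an adjusted p under 0.05. The smallest adjusted p among members was 0.739. An unadjusted p under 0.05 was reached by 4 members (UBE2C, HMMR, CDC20 and CCNB2) and by 2.52% of all tested genes.

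LL-37 replicate 3 stood apart, and it sets much of the spread. Genes reaching 1 TPM numbered 12991 in it and 14304 to 14555 in the other libraries, and it correlated with them at 0.949 to 0.963, against 0.985 to 0.992 among the others. The share of TPM from mitochondrially encoded genes was 1.84% there, against 3.47% to 4.38%. Its median gene lay 0.59 below the Ctrl mean on the log2 scale, whereas LL-37 replicates 1 and 2 lay at 0.02 and -0.03. The members' medians in replicates 1, 2 and 3 were 0.22, 0.18 and -0.06. In each treated library the members were therefore above the library's own median gene. Of the 39 members, 37 lay above the Ctrl mean in replicate 1 (56.6% of all tested genes), 37 in replicate 2 (41.2%) and 19 in replicate 3 (16.9%).

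With that library left out, the members were nearly all slightly higher. Of 39, 37 had a positive change, against 48.7% of all tested genes, and KIF11 and BUB3 had a negative one. The median was 0.20, with that of all genes at -0.0039, and the groups were apart for 22 members, all higher, against 12.3% of tested genes apart in that direction and 12.9% in the lower. Again 0 members passed, whereas 17 of all tested genes did (0.118%). The smallest adjusted p among members was 0.0911, for UBE2C, followed by 0.105 for PRC1 and 0.190 for CDC20 (limma). At an unadjusted p under 0.05 stood 12 members, against 9.01% of tested genes.

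**Figure D2:**
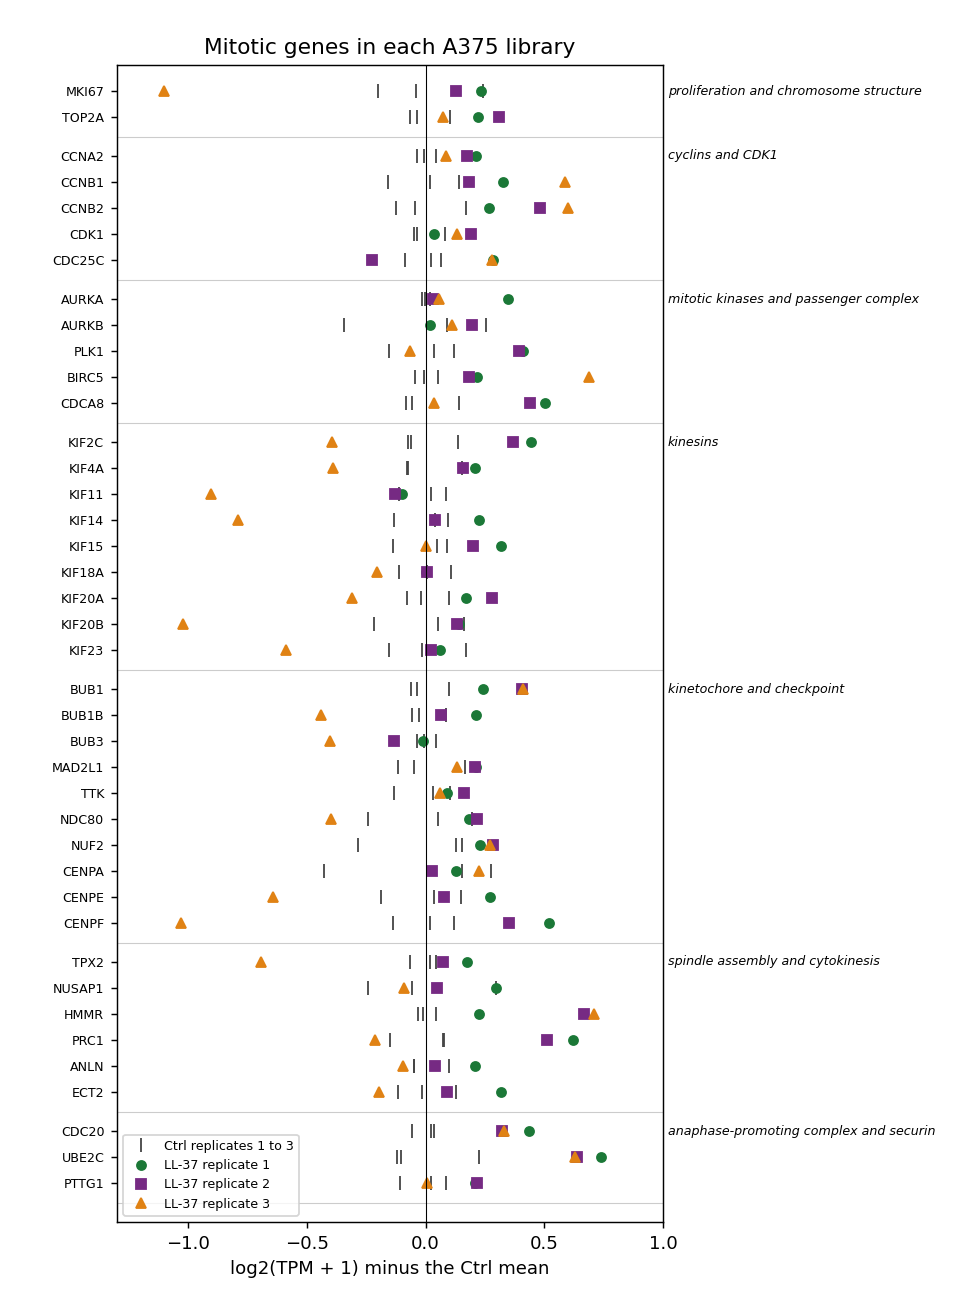
Each of the 40 members by library, as log2(TPM + 1) minus the Ctrl mean (x axis), grouped by role. Vertical ticks are the Ctrl libraries and coloured marks the LL-37 libraries. LL-37 replicates 1 and 2 lie to the right of 0 for most members, while replicate 3 lies far left for MKI67, CENPF, KIF20B and KIF11 and right for CCNB1, CCNB2, BIRC5 and HMMR.

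The position of replicate 3 followed transcript length. Across the 39 members, its deviation from the Ctrl mean had a Spearman rho of -0.65 with the length of the longest annotated transcript, and across the 13878 tested genes with a length, -0.56. In replicate 1 the rho over members was -0.06 and in replicate 2 it was -0.28. These correlations run across genes of single libraries, which are not independent. The 12 members with transcripts under 2500 bases had a median of 0.12 in replicate 3, the 16 members from 2500 up to 4500 bases had -0.20, and the 11 members of 4500 bases or more had -0.64. All tested genes in the same classes had -0.19, -0.63 and -0.99. In replicate 1 the member medians of these classes were 0.26, 0.21 and 0.22. With each library's length trend removed, 38 of 39 members had a positive change (49.7% of all tested genes did). The groups were then apart for 23 higher members and 1 lower member, KIF11, against 5.9% and 6.74% of all genes. No member passed (smallest adjusted p = 0.364, limma), and 13 had an unadjusted p under 0.05 (4.51% of all tested genes). Median-of-ratios scaling, which moved the median of all genes from -0.20 to 0.0079, left 34 of 39 members with a positive change (51.2% of all tested genes). With it 18 members were apart and higher and 1 lower (6.13% and 6.52%), and 10 had an unadjusted p under 0.05 (3.69%).

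**Figure D3:**
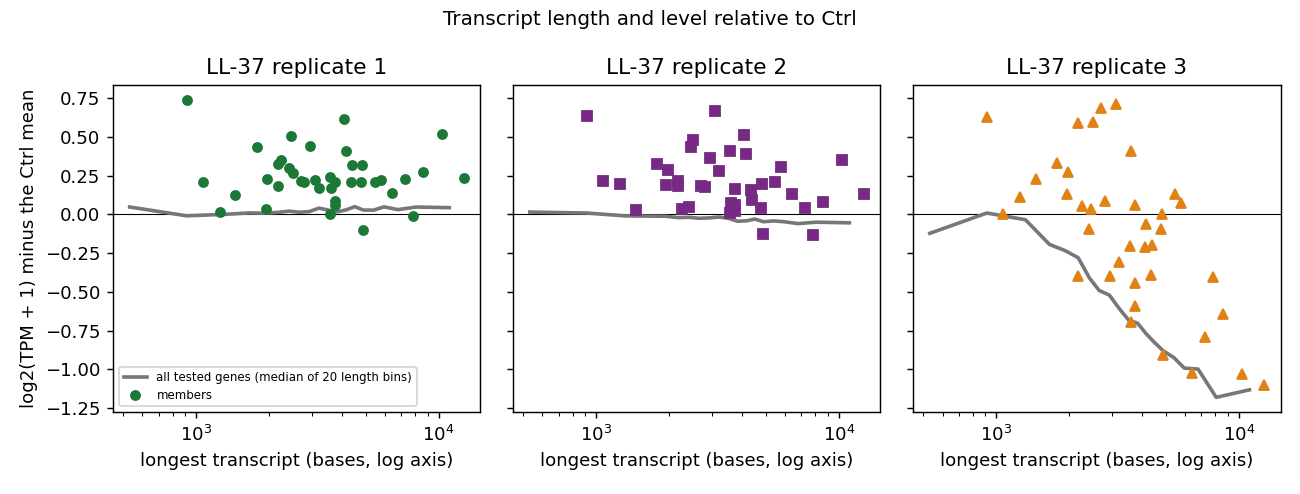
Deviation of each tested member from its Ctrl mean on the log2(TPM + 1) scale against the length of its longest GENCODE transcript (log axis), 1 panel per LL-37 library. The grey line is the median of all tested genes in 20 length bins. It is nearly flat in replicates 1 and 2 and slopes down in replicate 3, where most members lie above it.

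The 3 genes of the anaphase-promoting complex and securin had the highest median change of the 7 roles, whether or not LL-37 replicate 3 was kept. With length trends removed, the mitotic kinases and passenger complex had a higher one (0.46 against 0.43, relative to all genes). UBE2C, the ubiquitin-conjugating enzyme of the anaphase-promoting complex (ENSG00000175063, chromosome 20, 45812576 to 45816957, GRCh38), was 13.36, 17.27 and 13.53 TPM in Ctrl and 25.09, 23.28 and 23.15 TPM with LL-37. All treated libraries, the deviating one included, lay above the highest Ctrl library. The log2 change was 0.67 ± 0.16 (SE), or 0.69 ± 0.12 without LL-37 replicate 3. CDC20, which activates the complex once the checkpoint is satisfied (ENSG00000117399, chromosome 1, 43358955 to 43363203), was 14.56, 15.43 and 15.59 TPM in Ctrl and 20.90, 19.24 and 19.35 TPM with LL-37. Its groups were also apart, with a log2 change of 0.36 ± 0.14 (SE). PTTG1 encodes securin, the inhibitor of separase. It was the second most abundant member, at 67.2 ± 4.56 TPM in Ctrl and 74.4 ± 6.14 TPM with LL-37 (SD, n = 3), and LL-37 replicate 3 lay within the Ctrl range. The log2 change of PTTG1 was 0.14, or 0.21 without that library, where the groups were apart.

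Among the cyclins, B-type cyclins showed the larger log2 changes. CCNB1, the main partner of CDK1 at mitotic entry (ENSG00000134057, chromosome 5, 69167010 to 69178245), was 15.54, 19.37 and 17.70 TPM in Ctrl and 22.16, 19.99 and 26.77 TPM with LL-37. The lowest treated library exceeded the highest control by only 0.62 TPM. CCNB2 (ENSG00000157456, chromosome 15, 59105078 to 59125045) was 9.01, 9.58 and 11.26 TPM in Ctrl and 12.11, 14.25 and 15.51 TPM with LL-37. For both genes replicate 3 was the highest library, and the log2 changes were 0.37 ± 0.17 and 0.45 ± 0.18 (SE), or 0.26 and 0.37 without it. CCNA2, the cyclin of S phase and G2, was low at 2.55, 2.75 and 2.63 TPM in Ctrl and 3.22, 3.11 and 2.87 TPM with LL-37. Its log2 change was 0.16, or 0.19 without replicate 3. Without that library, mean TPM was 19.7% above Ctrl for CCNA2, 20.2% for CCNB1 and 32.5% for CCNB2. CDK1 itself was 5.58 ± 0.336 and 6.15 ± 0.377 TPM, and its groups overlapped. The phosphatase gene CDC25C, which activates CDK1, stayed between 0.57 and 1.24 TPM in all 6 libraries.

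**Figure D4:**
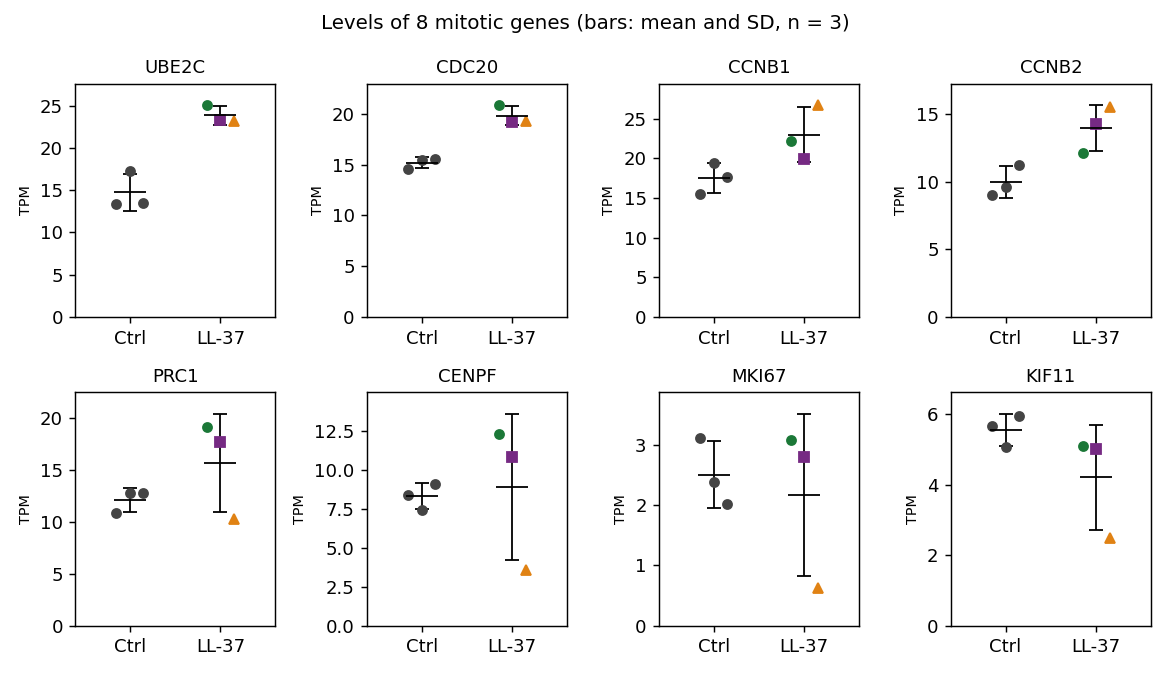
TPM of 8 members by library, with the mean and SD of each group (n = 3). Marks of LL-37 replicates 1, 2 and 3 are the circle, square and triangle. The triangle lies with or above the other treated libraries for UBE2C, CCNB1 and CCNB2, beside the lower of them for CDC20, and below all controls for PRC1, CENPF, MKI67 and KIF11.

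The mitotic kinases and the chromosomal passenger complex had positive changes for all 5 genes (19.7% of all tested genes), with 2 apart and higher (2.13%). BIRC5 encodes survivin, which brings Aurora B to centromeres. It was 3.31, 3.02 and 3.13 TPM in Ctrl and 3.82, 3.71 and 5.69 TPM with LL-37, with replicate 3 the highest. Its log2 change was 0.36, or 0.20 without replicate 3. AURKA, the spindle pole kinase, was apart by a narrow margin, at 9.18 to 9.45 TPM in Ctrl and 9.54 to 12.12 TPM with LL-37. PLK1, which acts at centrosomes, kinetochores and in cytokinesis, was 8.42, 10.37 and 9.74 TPM in Ctrl and 12.94, 12.75 and 9.02 TPM with LL-37, so that replicate 3 lay inside the Ctrl range. CDCA8 (borealin, a scaffold of the passenger complex) was 2.69, 2.75 and 3.30 TPM in Ctrl and 4.54, 4.29 and 3.00 TPM with LL-37. Over the first pair of treated libraries their log2 changes were 0.40 and 0.47. AURKB, the kinase of that complex, was 6.67 ± 1.56 and 7.16 ± 0.50 TPM, a change of 0.11 that lay within the spread of the controls.

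Kinetochore and checkpoint genes were mixed. BUB1, a checkpoint kinase, was 1.51, 1.55 and 1.80 TPM in Ctrl and 2.09, 2.47 and 2.48 TPM with LL-37, with a log2 change of 0.35 ± 0.15 (SE). NUF2, a subunit of the microtubule-binding NDC80 complex, was 5.11, 5.21 and 3.59 TPM in Ctrl and 5.54, 5.80 and 5.74 TPM with LL-37. The groups of both genes were apart and higher with LL-37 (2.13% of all tested genes were), and 8 of the 10 genes in this role overlapped. CENPF, a large protein of the outer kinetochore, was 8.40, 7.44 and 9.09 TPM in Ctrl and 12.32, 10.84 and 3.54 TPM with LL-37. Its treated libraries lay on both sides of the controls, and the log2 change went from -0.05 to 0.44 without replicate 3. CENPE, the kinesin that carries chromosomes to the spindle equator, was 1.08, 0.78 and 1.25 TPM in Ctrl and 1.45, 1.14 and 0.30 TPM with LL-37. Its replicate 1 lay above the controls, replicate 2 within them and replicate 3 below them. BUB3, which recruits BUB1 to kinetochores, was the most abundant member, at 115 ± 3.24 TPM in Ctrl and 102 ± 13.9 TPM with LL-37. It was among the few members that were not higher in the first pair of treated libraries (114.14 and 104.86 TPM). MAD2L1, BUB1B, TTK, NDC80 and CENPA, which serve the checkpoint, the kinetochore or centromeric chromatin, overlapped between groups, with log2 changes from -0.06 to 0.18.

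Kinesins had the lowest median change of the 7 roles with all libraries. None of the 9 was apart between groups (2.13% of all tested genes were apart and higher), and 3 had a positive change (19.7% of all tested genes did). KIF11, the motor that pushes spindle poles apart, was 5.66, 5.07 and 5.96 TPM in Ctrl and 5.11, 5.0 and 2.50 TPM with LL-37. Replicates 1 and 2 lay near the lowest control, so that KIF11 was the one kinesin with a negative change also without replicate 3 (-0.11, against -0.38 with it). KIF2C, a microtubule depolymerase at centromeres, was 6.83, 5.76 and 5.81 TPM in Ctrl and 8.67, 8.18 and 4.41 TPM with LL-37. Its first treated libraries were above all controls and the last below them, and the log2 change went from 0.14 to 0.40. KIF20B, a motor of cytokinesis with a long transcript, was 4.54, 3.26 and 4.14 TPM in Ctrl and 4.45, 4.43 and 1.44 TPM with LL-37. In replicate 3, 8 of the 9 kinesins lay below every control (76.8% of all tested genes did), all but KIF15. In replicate 1, 5 lay above every control, and in replicate 2, 4 did, against 30.8% and 19.2% of tested genes. Log2 changes without replicate 3 were 0.04 for KIF23, 0.14 for KIF20B, 0.13 for KIF14, 0.18 for KIF4A, 0.23 for KIF20A, 0.26 for KIF15 and 0.0038 for KIF18A. These motors act in cytokinesis (KIF23, KIF14, KIF20A), on chromosome arms (KIF4A), in spindle bipolarity (KIF15) and in chromosome alignment (KIF18A).

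Among spindle and cytokinesis factors, HMMR, a spindle-associated receptor for hyaluronan, was 2.04, 2.20 and 2.08 TPM in Ctrl and 2.63, 3.93 and 4.08 TPM with LL-37. Its groups were apart, with a log2 change of 0.53 ± 0.19 (SE). PRC1, which bundles the microtubules of the central spindle (ENSG00000198901, chromosome 15, 90966038 to 90995629), was 10.79, 12.76 and 12.78 TPM in Ctrl and 19.08, 17.64 and 10.29 TPM with LL-37. Replicates 1 and 2 were far above the controls and replicate 3 just below them. The log2 change of PRC1 was 0.31 ± 0.25 (SE), or 0.57 ± 0.11 without replicate 3. TPX2, the activator of Aurora A on spindles, was 8.23 ± 0.359 and 7.61 ± 2.53 TPM, and NUSAP1, a microtubule bundler, 6.83 ± 1.52 and 7.26 ± 1.15 TPM. ANLN and ECT2, which organise the cleavage furrow, had log2 changes of 0.05 and 0.07. Groups of these 4 genes overlapped.

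The proliferation marker MKI67 and the DNA topoisomerase TOP2A had changes of opposite sign with all libraries. MKI67, whose longest transcript of 12678 bases was the longest of any member, was 3.11, 2.38 and 2.02 TPM in Ctrl and 3.09, 2.80 and 0.62 TPM with LL-37. The log2 change was -0.25, or 0.18 without replicate 3, and the groups overlapped either way. TOP2A, which untangles sister chromatids, was 12.82, 11.30 and 11.56 TPM in Ctrl and 14.01, 14.94 and 12.54 TPM with LL-37, with a log2 change of 0.20. Its replicate 3 lay inside the Ctrl range.

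Set side by side, the 3 roles of main interest differed with all libraries and drew closer without replicate 3. Relative to the median of all genes, the median log2 change was 0.46 for cyclins and CDK1 (4 tested genes), 0.25 for kinetochore and checkpoint genes (10) and 0.14 for kinesins (9). In the same order, the SD of the role median between replicate libraries, pooled over Ctrl and LL-37, was 0.30, 0.09 and 0.05. Without replicate 3 these medians were 0.23, 0.19 and 0.14. Median transcript lengths were 2336, 3725 and 4348 bases in the same order. In replicate 3 alone, the medians against the Ctrl mean were 0.36, -0.17 and -0.40. With length trends removed and all libraries kept, they were 0.40, 0.30 and 0.18 relative to all genes. Leaving out Ctrl replicate 2 turned the order of the last 2 roles, with 0.15 for kinetochore and checkpoint genes and 0.17 for kinesins. The differences between roles were not tested. The 3 genes of the anaphase-promoting complex and securin role had 0.56 with all libraries and 0.38 without replicate 3.

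**Figure D5:**
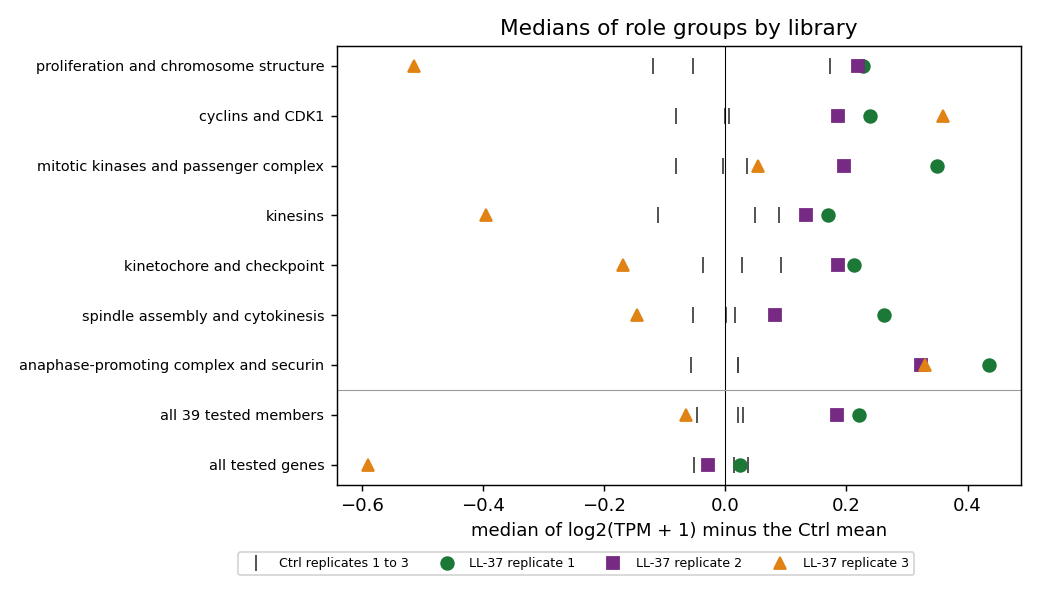
Median over each role's tested genes of log2(TPM + 1) minus the Ctrl mean, by library, with all 39 tested members and all tested genes at the bottom. LL-37 replicates 1 and 2 lie between 0.08 and 0.44 in every role, and replicate 3 ranges from -0.51 for MKI67 and TOP2A to 0.36 for cyclins and CDK1.

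Levels in untreated cells spanned BUB3 at 115 TPM to CDC25C at 0.84 TPM. After BUB3 and PTTG1 came CCNB1, CDC20, UBE2C, PRC1 and TOP2A at 17.5, 15.2, 14.7, 12.1 and 11.9 TPM, and the neighbours CDC20 and UBE2C, and PRC1 and TOP2A, differed by less than their SD. CENPE, KIF15, KIF18A, TTK, KIF14 and BUB1 were between 1 and 2 TPM. The summed TPM of all 40 was 395 to 407 in Ctrl, 474 and 453 in LL-37 replicates 1 and 2, and 382 in replicate 3.

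Among other genes of the same pathways, no member of the lists passed in limma with all libraries or without LL-37 replicate 3. Without that library, the median log2 change relative to all genes was -0.02 for 21 further kinesin and spindle genes, 0.02 for 27 further kinetochore and centromere genes, 0.04 for 18 condensin and cohesin genes and -0.02 for 17 subunits and regulators of the anaphase-promoting complex. It was 0.07 for 15 CDK1 regulators and 0.01 for 24 S phase genes. With all libraries these medians were, in the same order, -0.05, 0.14, -0.12, 0.04, 0.07 and 0.03. The further kinetochore and centromere genes then lay as high as the member kinesins (0.14), and with median-of-ratios scaling above them (0.15 against 0.07). Of the most abundant genes of these lists, STMN1, a tubulin-binding protein, was 79.1 ± 7.93 TPM in Ctrl and 76.7 ± 1.51 TPM with LL-37, and RAD21, a cohesin subunit, was 64.6 ± 2.88 and 56.5 ± 13.2 TPM. NCAPD2, of condensin, was 34.61, 32.85 and 40.24 TPM in Ctrl and 41.03, 42.19 and 11.26 TPM with LL-37. Of the 27 further kinetochore and centromere genes, 3 were apart and higher and 6 lower (2.13% and 10.3% of all tested genes). Without replicate 3, 4 were apart and higher and 7 lower (12.3% and 12.9%). PMF1, of the MIS12 kinetochore complex, and MAD2L2 were apart and higher with all libraries, with log2 changes of 0.17 and 0.11. CENPC, which links centromeric chromatin to the kinetochore, was apart and lower (-0.42). So was CKAP2, a microtubule-stabilising protein, at -0.27. NUMA1, a spindle pole protein, was 74.72, 67.40 and 81.90 TPM in Ctrl and 78.52, 69.58 and 19.07 TPM with LL-37, with replicate 3 far below the rest. The anaphase-promoting complex subunits ANAPC11, ANAPC5 and CDC16 had log2 changes of 0.19, 0.04 and -0.25. ENSA and ARPP19, which inhibit the phosphatase opposing CDK1, had 0.04 and -0.36, and CKS1B, a CDK-binding subunit, had 0.07.

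The median of 19 genes listed as G2/M transcription factors and their partner proteins was close to that of all genes. It lay at -0.04 relative to all genes with all libraries and 0.01 without replicate 3. FOXM1, which was named after its values were seen, was 5.90, 5.83 and 5.95 TPM in Ctrl and 7.63, 6.76 and 3.19 TPM with LL-37, so that it showed the same split by replicate as PRC1 and CENPF. NFYA, the DNA-contacting subunit of NF-Y, was 14.77, 13.31 and 14.30 TPM in Ctrl and 13.12, 12.70 and 6.38 TPM with LL-37, lower in all treated libraries. Of these 19 genes, 2 had a positive change with all libraries (19.7% of all tested genes did) and 10 without replicate 3 (48.7%). With all libraries, 0 were apart and higher and 4 lower (2.13% and 10.3% of all tested genes). Without replicate 3, 3 were apart and higher and 4 lower (12.3% and 12.9%). E2F4, a DREAM subunit, had a log2 change of -0.24, or 0.02 without replicate 3. RBBP4, a MuvB subunit, was 113 ± 1.08 TPM in Ctrl and 96.6 ± 15.6 TPM with LL-37.

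The 11 genes of G1 cyclins, their kinases and inhibitors had a median of -0.06 relative to all genes. CDKN2C, the p18 inhibitor of CDK4 and CDK6, was 47.87, 50.46 and 51.87 TPM in Ctrl and 31.00, 35.66 and 40.54 TPM with LL-37. All treated libraries lay below all controls, with a log2 change of -0.48, and without replicate 3 it was -0.58 (adjusted p = 0.0749, limma). CDKN1A, the p21 inhibitor, was 89.49, 89.90 and 96.24 TPM in Ctrl and 80.77, 87.46 and 51.83 TPM with LL-37, also with no overlap. CDK4 was 328 ± 15.5 and 363 ± 39.2 TPM. In S phase genes, PCNA, the sliding clamp of DNA polymerases, was 64.4 ± 0.251 and 61.1 ± 5.28 TPM, and MCM7, of the replicative helicase, was 111 ± 7.45 and 94.8 ± 28.7 TPM. RFC3, of the clamp loader, was 13.09, 13.21 and 13.19 TPM in Ctrl and 11.97, 11.90 and 10.50 TPM with LL-37, lower in every treated library.

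The cell identity was checked because the labels' extraction text names keratinocytes. SOX10, the neural crest factor of melanocytes, was 287.26, 265.65 and 296.44 TPM in Ctrl and 387.25, 343.19 and 146.99 TPM with LL-37. MIA, a secreted melanoma marker, was 414 to 534 TPM in Ctrl and 414 to 698 TPM with LL-37, while the pigment genes MLANA and TYR were listed at 0.02 TPM or less. Of the 10 melanoma lineage markers, 6 were tested, and 3 of these (MITF, S100A1 and PRAME) were apart and lower with LL-37 (10.3% of all tested genes). Without replicate 3, 4 were apart and lower and 1, SOX10, higher (12.9% and 12.3% of all tested genes). The median of the 6 was then -0.16 relative to all genes. The 10 summed to 900.3 to 989 TPM in Ctrl and 959 to 999 TPM with LL-37, and the part of this list in the differences above was not tested. KRT1, DSG3 and TP63 were listed at 0 in every library and KRT5 in all but LL-37 replicate 3 (0.14 TPM). Summed over 8 keratinocyte markers, most of it KRT10, the level was 28.8 to 29.98 TPM in Ctrl and 21.3 to 26.8 TPM with LL-37, and its part in the differences above was not tested. The 7 fibroblast markers summed to 7.18 to 8.02 and 3.41 to 7.97 TPM, the 6 leukocyte markers to 35.8 to 42.9 and 22.7 to 41.6 TPM, and the 4 endothelial markers to 2.08 to 2.56 and 0.94 to 3.27 TPM.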

How the data were processed

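Poly(A) RNA of A375 cells was made into stranded libraries, per the labels' protocols. The authors deposited TPM per Ensembl gene, against GRCh38 according to the submitters' processing notes. Which aligner and quantifier made them is not given in the sources used. TPM keep no depth, so no counting interval can be given. A gene name table matched 62541 of 63140 identifiers. Values were tested as log2(TPM + 1) over the 14399 genes that reached 1 TPM in 3 or more of the 6 libraries, using limma 3.58.1 in R 4.3.3 (two-sided, intensity trend, Benjamini-Hochberg adjusted p under 0.05). Gene positions and the length of each gene's longest transcript (known for 96.4% of tested genes) were read from GENCODE 29, and promoters from RefSeq.

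The members, role groups and lists were chosen with earlier results of these data known. All members are named. Of the other lists, the 2 most abundant genes and the apart gene with the largest change are named. FOXM1 and the cell type markers lie outside this rule. The mouse libraries were not used here.

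The tests were repeated with a pseudocount of 0.1 or 5, without the filter, with a filter of 5 TPM, after quantile normalization or median-of-ratios scaling, with a replicate block, with no intensity trend, without mitochondrially encoded genes and with each library left out. Removal of each library's length trend (lowess), alone or with LL-37 replicate 3 left out, was chosen after seeing the data. The fit was tested on simulated data.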

Additional observations from a re-analysis of the deposited data

How the results depend on the processing

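The count of 0 genes past the threshold became 17 without LL-37 replicate 3 (range 0 to 17 over libraries left out) and 9 with length trends removed as well, and was 0 in every other setting run. No member passed in any setting. The 10 members apart and higher (2.13% of all tested genes) became 6 with the 5 TPM filter (22 members tested) and 18 with quantile normalization. They became 18 with median-of-ratios scaling (6.13% of all tested genes), 23 with length trends removed (5.9%) and 25 with LL-37 replicate 3 left out as well. Leaving out libraries gave 10 to 22, with 22 without LL-37 replicate 3 (12.3%). The share of all genes also rose in the settings where it is given. It is not given for the others, so their counts cannot be set against it. The members' median relative to all genes (0.32) was 0.18 with a pseudocount of 5, 0.19 with no filter and 0.20 to 0.41 over libraries left out. For kinesins (0.14) it was 0.0055 with no filter, 0.043 with the 5 TPM filter, 0.074 with median-of-ratios scaling and 0.061 to 0.196 over libraries left out. For kinetochore and checkpoint genes (0.25) it was 0.14 with a pseudocount of 5, 0.12 with no filter and 0.15 to 0.32 over libraries left out. For cyclins and CDK1 (0.46) it was 0.23 with no filter and 0.23 to 0.58 over libraries left out. The kinetochore median was below that of kinesins without Ctrl replicate 2 (0.15 against 0.17).

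Signs of log2 changes that turned were as follows, and none of these genes passed in either setting. With length trends removed, the changes were 0.13 for MKI67, 0.26 for KIF4A, 0.18 for KIF14, 0.16 for KIF18A, 0.089 for KIF20B, 0.065 for KIF23, 0.18 for BUB1B, 0.18 for BUB3, 0.10 for NDC80, 0.27 for CENPE, 0.32 for CENPF and 0.078 for TPX2. With LL-37 replicate 3 left out and length trends removed, they were 0.18 for MKI67, 0.18 for KIF4A, 0.14 for KIF14, 0.0034 for KIF18A, 0.14 for KIF20B, 0.041 for KIF23, 0.14 for BUB1B, 0.20 for NDC80, 0.18 for CENPE, 0.44 for CENPF and 0.12 for TPX2. Median-of-ratios scaling gave 0.15 for KIF4A, 0.082 for KIF18A, 0.030 for KIF23, 0.14 for BUB1B, 0.067 for BUB3, 0.16 for NDC80, 0.15 for CENPF and 0.067 for TPX2. Quantile normalization gave 0.17 for KIF4A, 0.11 for KIF18A, 0.077 for KIF23, 0.18 for BUB1B, 0.19 for NDC80, 0.080 for CENPE, 0.21 for CENPF and 0.12 for TPX2. A pseudocount of 5 gave 0.0018 for KIF4A and 0.0038 for NDC80.

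Over libraries left out, changes ranged from -0.49 to 0.18 for MKI67, -0.063 to 0.24 for AURKB, -0.014 to 0.40 for KIF2C, -0.12 to 0.18 for KIF4A, -0.38 to 0.13 for KIF14, -0.12 to 0.0038 for KIF18A, -0.070 to 0.23 for KIF20A, -0.44 to 0.14 for KIF20B, -0.28 to 0.040 for KIF23, -0.19 to 0.14 for BUB1B and -0.12 to 0.20 for NDC80. They ranged from -0.086 to 0.26 for CENPA, -0.28 to 0.18 for CENPE, -0.34 to 0.44 for CENPF, -0.31 to 0.12 for TPX2, -0.036 to 0.23 for NUSAP1, -0.027 to 0.12 for ANLN and -0.053 to 0.20 for ECT2. The cause of each turn was not tested, beyond the values by transcript length in the report.

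The replicate block gave 0 genes and 0 members past the threshold, as without it, and left the medians at 0.32, 0.46, 0.25 and 0.14. Same-numbered Ctrl and LL-37 libraries had deviations from their group means that correlated at 0.09, -0.20 and -0.17, and pairs with different numbers at -0.21 to 0.25. The LL-37 means include the deviating replicate 3, so whether same-numbered libraries were prepared together cannot be told from these values. A TPM table keeps no depth, so that low members such as CENPE, KIF15 and CDC25C have an unknown counting error.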
